A study of Rattus norvegicus with 12 samples.

Results

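Connexins are the proteins of gap junctions, the channels that join the cytoplasm of neighbouring cells. The members described here are the 4 connexin genes Gja1, Gja4, Gja5 and Gjc1, with every probe set that the array annotation assigns to 1 of them alone. That gave 7 of the 31042 probe sets tested, and 4 of the 14217 genes named on the array: 3 probe sets for Gja1, 2 for Gja5, and 1 each for Gja4 and Gjc1. The genes were chosen by name, though with earlier results of these data known.

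Transcripts were measured on 1-colour Affymetrix arrays in atrial appendages of male Sprague-Dawley rats. An aorto-caval shunt, which joins the large abdominal artery and vein and overloads the heart with volume, or a sham operation had been made 28 days before. The 12 arrays formed 4 groups of 3, sham and shunt animals for each atrium. Each array held RNA pooled from 2 tissues, so the p-values below speak for the spread between pools only. The age of the animals is not given in the sources used here. The values are log2 RMA values, on which a difference of 1 is 2-fold.

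In each heartbeat current passes from one muscle cell to the next through gap junctions, most of them in the intercalated discs at the ends of the cells. Gja1 encodes connexin43, the main connexin of working atrial and ventricular muscle, and Gja5 encodes connexin40, found in atrial muscle, the fast conduction system and arterial endothelium. Gjc1 encodes connexin45, best known from the nodes, the conduction system and the early heart, while Gja4 encodes connexin37, a connexin of endothelium, above all in arteries.

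The arrays differed in ways that bear on these genes. The first principal component, 60.5% of the variance, separated the left arrays from the right ones. On the second component, replicate 3 of the left atrium shunt group lay at -26.7 and the other arrays of that group at 14.95 and 13.62. The atrial muscle markers had summed levels of 16 to 16.09 in all 4 groups. Nppa, Sln, Myl4 and Myl7 made up most of these sums, so that the dimmer markers hardly move them. Nppa, with group means of 14.38 to 14.43, lay at the top of the scale, where the highest value was 14.43. The right arrays also carried ventricular muscle markers: Myl2, the ventricular light chain, had a mean of 10.94 in right atrium sham against 5.26 in left atrium sham. On the right atrium shunt arrays it was 11.45, 12.83 and 12.82. These values are from the brightest Myl2 probe set, called with the shunt in the right atrium at 1.42. Another Myl2 probe set was called there at -0.55. The labels' source entry names atria alone, whereas their tissue entry names ventricles too. The 3′ minus 5′ difference of the beta-actin control probe sets, a sign of RNA quality, was 1.58 to 1.82 in right atrium sham, 1.91 to 2.03 in right atrium shunt, 1.31 in left atrium sham and 1.14 to 1.39 in left atrium shunt.

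Gja4 rose with the shunt in each atrium, and it was the 1 connexin gene of the 4 to pass that test. It was also higher in the left than in the right atrium, in sham and in shunt animals. Its values in right atrium sham were 7.08, 7.04 and 6.96, and in right atrium shunt 7.76, 7.51 and 7.47. In left atrium sham they were 7.63, 7.65 and 7.55, and in left atrium shunt 8.25, 8.35 and 7.94. Every shunt array thus lay above every sham array of the same atrium, and every left array above every right array of the same operation. The lowest level was that of right atrium sham and the highest that of left atrium shunt, while right atrium shunt and left atrium sham, with means of 7.58 and 7.61, overlapped.

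In the right atrium Gja4 rose by 0.56 ± 0.11 on the log2 scale with the shunt (SE of the limma fit, n = 3 pools per group, 95% interval 0.33 to 0.79, adjusted p = 0.019), which is 1.47-fold. It was the 1 member called of 7, where 2.97% of all probe sets passed. In the left atrium the rise was 0.57 ± 0.11 (interval 0.34 to 0.8, limma adjusted p = 0.0321), or 1.49-fold, again the 1 member called of 7, against 0.751% of all probe sets. In bulk tissue, more cells of a type and more RNA per cell cannot be told apart. The rise averaged over both atria was 0.56 ± 0.08 (limma adjusted p = 0.00164), with 1 of 7 members called against 3.86% of all probe sets. The 2 rises differed by 0.01 ± 0.15 (interval -0.31 to 0.34, limma adjusted p = 0.978).

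No member passed the test of a difference between the atria in the shunt effect, and for none of the 7 was the unadjusted p of that limma test under 0.05. Only 0.0258% of all probe sets passed there.

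**Figure D1:**
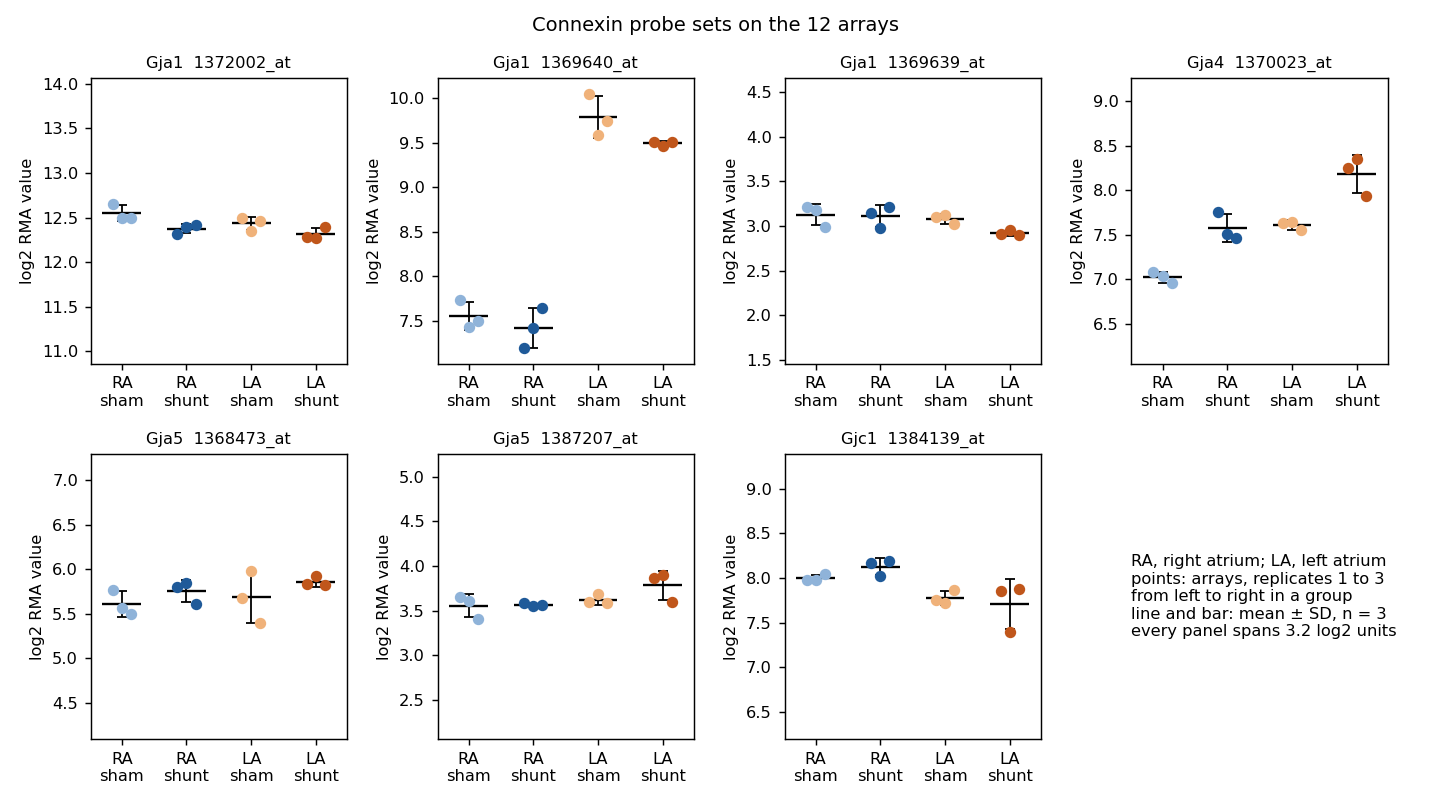
Log2 RMA value of each connexin probe set on each of the 12 arrays (points), by group, with the group mean (line). Gja4 was lowest in right atrium sham, between 6.96 and 7.08, and highest in left atrium shunt, between 7.94 and 8.35. Right atrium shunt and left atrium sham lay between these and overlapped. The Gja1 probe set 1369640_at parts left from right arrays, and the Gja1 probe set 1372002_at does not.

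The call of Gja4 in a single atrium rested on few arrays, the averaged call did not. With each of the 12 arrays left out in turn, the right atrial rise lay between 0.47 and 0.61 and passed 8 times of 12. It was lost without right atrium shunt replicate 1 or 2 or right atrium sham replicate 2 or 3, with a limma adjusted p of up to 0.0733. The left atrial rise lay between 0.49 and 0.69 and passed 4 times of 12, without right atrium shunt replicate 1 or 3, right atrium sham replicate 1 or left atrium shunt replicate 3. In the other exclusions its limma adjusted p reached 0.134, and in a fit of the 6 left arrays alone it was 0.22. The averaged rise passed in all 12, between 0.52 and 0.62, with limma adjusted p from 0.000129 to 0.00732.

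**Figure D2:**
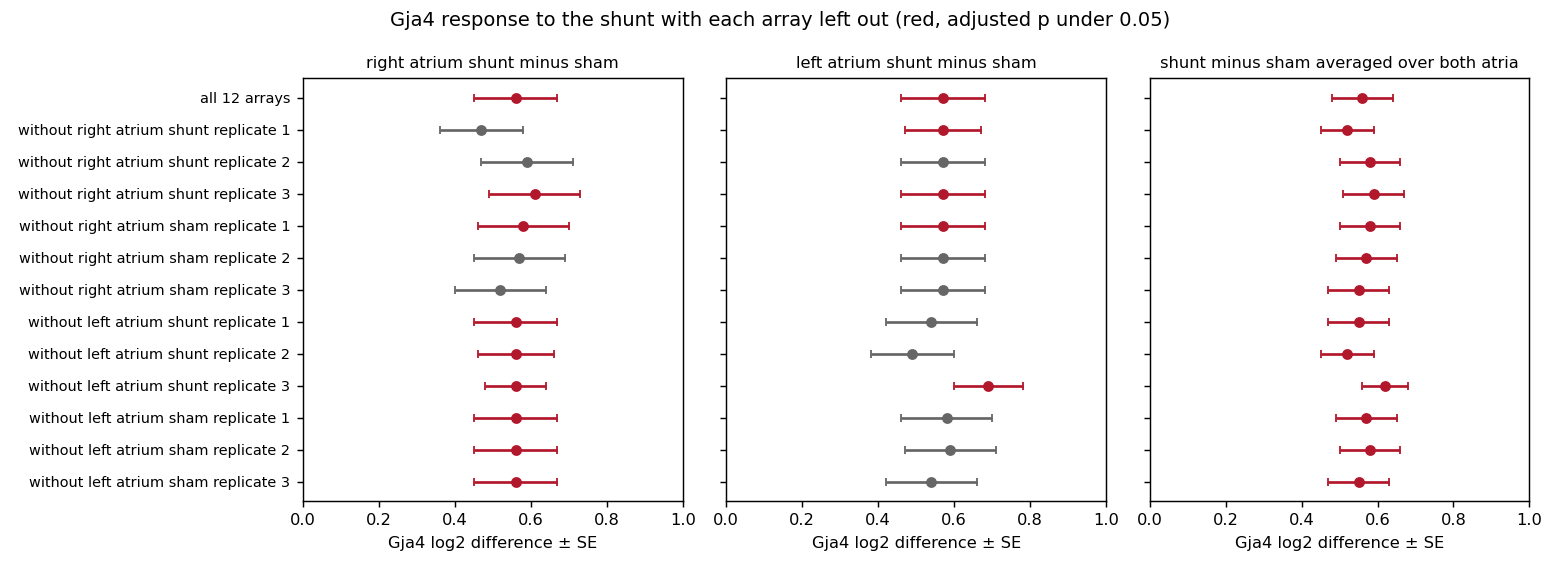
Log2 difference of Gja4 between shunt and sham arrays with each of the 12 arrays left out in turn, in the right atrium, the left atrium and averaged over both. Red points passed an adjusted p of 0.05. With an array left out, the averaged difference passed in all 12 fits, the right atrial one in 8 and the left atrial one in 4.

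Between the atria Gja4 was higher on the left by 0.59 ± 0.11 in sham animals (1.5-fold, n = 3 pools per group, limma adjusted p = 0.000987) and by 0.6 ± 0.11 in shunt animals (1.52-fold, limma adjusted p = 0.000972). These differences passed with any 1 array left out, at 0.55 to 0.62 in sham and 0.52 to 0.72 in shunt. Of the 7 members, 2 passed in the comparison of the atria in sham animals, against 36.1% of all probe sets, and 3 passed in shunt animals, against 37.7%. A call between the atria was thus common on this array. With right atrium shunt replicate 1, the array of that group with the least Myl2, as its only array, the averaged rise of Gja4 was 0.65 (limma adjusted p = 0.0123). The left minus right difference in shunt animals was then 0.42 (limma adjusted p = 0.077).

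Since Gja4 is a gene of endothelium, the endothelial markers are given beside it. Of 9 measured endothelial markers of 10 listed, 1 rose with the shunt in the right atrium and none in the left, with median differences of 0.17 and 0.05. Over all genes the medians were 0.02 and -0.01, with 3.97% and 0.935% of genes passing. The marker that rose was Esam, an adhesion molecule of endothelial junctions, by 0.37 (limma adjusted p = 0.0341). With quantile normalization again Esam no longer passed (limma adjusted p = 0.0725). Their summed level was 12.22 to 12.29 in right atrium sham and 12.38 to 12.54 in right atrium shunt, which did not overlap. It was 12.29 to 12.32 in left atrium sham and 12.29 to 12.47 in left atrium shunt, which did. The part of endothelial cell content in the values of Gja4 was not tested.

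Of the 4 measured arterial endothelial markers other than connexins, Hey1, a target of Notch signalling, rose in the right atrium by 0.52 (limma adjusted p = 0.0285). That is 25% of the list against 3.97% of all genes. None passed in the left, where 0.935% of all genes passed. There Hey1 differed by 0.37 and Dll4, a Notch ligand of arteries, by 0.28. Their summed level was 9.1 to 9.34 in right atrium sham, 9.52 to 9.57 in right atrium shunt, 8.62 to 8.8 in left atrium sham and 8.92 to 8.97 in left atrium shunt. It was thus higher in the shunt arrays of each atrium, but lower on the left, where Gja4 was higher. In sham animals 3 of these 4 markers were called lower on the left and 1 higher, or 100% against 37.6% of all genes. Hey1 was lower on the left, at 7.01 against 8.06, while Notch4 was higher by 0.34. Sox17 differed by -0.36, but others of its probe sets were called at 0.55 and 1.08. Of the 9 endothelial markers of the former list, 4 were called higher and 1 lower on the left in sham animals, or 55.6%.

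Smooth muscle markers had no call with the shunt in either atrium. In sham animals 6 of 8, or 75% against 37.6% of all genes, were higher on the left. The others, Cnn1 and Lmod1, differed by -0.14 and -0.08 without passing. Summed levels in sham were 12.61 to 12.67 on the left against 12.12 to 12.33 on the right. Des, also listed with the intercalated disc genes, was the brightest marker, at 11.95 against 11.63, and weighed most in that sum. Macrophage markers had 3 calls of 8 with the shunt in the right atrium, all higher, or 37.5% against 3.97% of all genes. Among them Aif1 was called at 0.74, but another of its probe sets was called at -0.47. Macrophage markers had no call in the left, where 0.935% of all genes passed. Their summed level was 10.65 to 10.71 in right atrium sham and 11.21 to 11.41 in right atrium shunt. In left atrium sham it was 10.74 to 10.82, and in left atrium shunt 11.43, 11.36 and 10.77, so that replicates 1 and 2 lay as high as the right shunt arrays and replicate 3 with the sham arrays. Of 7 ventricular markers, 4 rose in the right atrium (57.1%) and 1 in the left (14.3%), against the same shares of all genes. The 4 include Myl2, whose other probe set was called lower there. Fibroblast, adipocyte and conduction tissue markers had no call with the shunt in either atrium. The summed level of the adipocyte markers was 11.28 to 11.38 in left atrium sham. On left atrium shunt replicates 1, 2 and 3 it was 11.26, 11.18 and 11.55. The adipocyte marker Ucp1 was at 4.22, 4.66 and 7.56 on these 3 arrays. Among the rest, 1 atrial muscle marker of 7 (14.3%) and 1 mesothelial marker of 5 (20%) fell in the right atrium. Of 8 neuronal markers 1 rose on the right (12.5%) and 2 on the left (25%). The part of any of these cell types in the connexin values was not tested.

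The genes whose 12 values were most like those of Gja4, by the root mean square difference after each gene's own mean was taken off, were Ptgis at 0.0655, Bgn at 0.115, Myo1c at 0.132, and Pdgfrb and Cthrc1 at 0.146 each. Over all genes the median of this distance was 0.434. Ptgis encodes prostacyclin synthase, Bgn the matrix proteoglycan biglycan, Myo1c an unconventional myosin, Pdgfrb a receptor of platelet-derived growth factor and Cthrc1 a secreted protein of injured arteries. Ptgis differed with the shunt by 0.54 in the right and 0.48 in the left atrium, and between the atria in sham animals by 0.59. These genes were picked for their likeness, so their values are a description with no test.

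The other members varied little over the arrays, with an SD of 0.109 for Gja1, 0.176 for Gja5 and 0.219 for Gjc1, so that any gene of small variation lies near them. Most like Gja1 were Tas2r13, Herc3, Cutal, Chrna6 and Ryr2, the calcium release channel of heart muscle, at 0.0409 to 0.0501 against a median of 0.203 over all genes. Most like Gja5 were Oasl, Kirrel3, Gria2, Smim1 and Hdhd3, at 0.0925 to 0.106 against 0.235. Most like Gjc1 were Nol4l, Alg13l1, Ube2a, Clec16a and Vopp1, at 0.067 to 0.097 against 0.273.

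The promoters of Gja4 and Gja5, the members named for endothelium, are shown as the 250 bases before the gene's start in RefSeq, build GRCr8. Capitals mark matches to the motifs searched, on both strands. The GC box of Sp1 was searched as GGGCGG. The motif of AP-1 factors was TGANTCA, and that of T-box factors was AGGTGT. Nkx2-5 was represented by its core AAGTG, GATA factors by the letters AGATAA, and the box near many start sites by TATAAA. Gja4 lies on the minus strand, chr5:144920325-144920574, and Gja5 on the plus strand, chr2:187290977-187291226.
Gja4: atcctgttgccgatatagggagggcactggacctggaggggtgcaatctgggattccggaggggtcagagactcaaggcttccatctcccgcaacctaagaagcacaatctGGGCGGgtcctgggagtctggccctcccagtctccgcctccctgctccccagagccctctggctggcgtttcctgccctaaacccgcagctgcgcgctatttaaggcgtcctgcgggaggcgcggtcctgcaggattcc
Gja5: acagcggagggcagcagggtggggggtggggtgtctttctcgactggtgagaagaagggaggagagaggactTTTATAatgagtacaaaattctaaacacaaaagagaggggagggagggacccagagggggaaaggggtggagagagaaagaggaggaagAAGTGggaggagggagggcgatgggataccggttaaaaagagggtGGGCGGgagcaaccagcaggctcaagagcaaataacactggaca
The Gja4 window held 1 match, a GC box 139 bases before the start, a motif found in 30.5% of the 33469 promoters of this length. Gja5 held a GC box at 44 bases, an Nkx2-5 motif at 89 and, on the opposite strand, the letters TATAAA at 178. The 2 further motifs, that of Nkx2-5 and TATAAA, occur in 40.6% and 12.9% of promoters. No match overlapped another. The Gja1 window held 1 AP-1 motif (6.34% of promoters) and 1 GATA motif (10.3%), and none of the 3 held the T-box motif (11.6%). Of the 250 bases of the Gja1 window, 176 lie before the gene's start in RefSeq. The GATA motif lay in these, whereas the AP-1 motif lay past that start. A match describes the letters of these windows and no more.

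Gja1 gave different pictures on its 3 probe sets. On the brightest, 1372002_at, which stands for the gene here, left and right did not differ past the threshold, while on 1369640_at the left atrium was over 4-fold higher. The values of 1372002_at were 12.65, 12.5 and 12.49 in right atrium sham, 12.32, 12.39 and 12.42 in right atrium shunt, 12.49, 12.35 and 12.46 in left atrium sham, and 12.28, 12.27 and 12.39 in left atrium shunt. All right atrium shunt arrays lay below all right atrium sham arrays, while in the left atrium shunt replicate 3 lay above sham replicate 2.

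With the shunt, 1372002_at differed by -0.17 ± 0.07 in the right atrium (interval -0.33 to -0.01, limma adjusted p = 0.22) and by -0.12 ± 0.07 in the left (interval -0.28 to 0.04, limma adjusted p = 0.513). Neither passed. The averaged difference of -0.15 ± 0.05 did not pass either (limma adjusted p = 0.154), but it did with eBayes trend and robust options (adjusted p = 0.0248). Between left and right it differed by -0.11 ± 0.07 in sham (interval -0.27 to 0.05, limma adjusted p = 0.256) and by -0.06 ± 0.07 in shunt (interval -0.22 to 0.1, limma adjusted p = 0.538). The intervals of these differences lie far from those of the next probe set.

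The values of 1369640_at were 7.73, 7.43 and 7.5 in right atrium sham, 7.2, 7.42 and 7.64 in right atrium shunt, 10.04, 9.58 and 9.74 in left atrium sham, and 9.51, 9.46 and 9.51 in left atrium shunt. No left array came near a right one. The left was higher by 2.24 ± 0.13 in sham animals (4.71-fold, interval 1.95 to 2.52, n = 3 pools per group, limma adjusted p = 3.29e-07) and by 2.07 ± 0.13 in shunt animals (4.21-fold, limma adjusted p = 1.16e-06). These passed with any 1 array left out, at 2.11 to 2.34 in sham. With the shunt it differed by -0.13 ± 0.13 in the right atrium (limma adjusted p = 0.629) and by -0.29 ± 0.13 in the left (limma adjusted p = 0.353), and neither passed. The left shunt arrays nonetheless all lay below the left sham arrays.

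The third probe set, 1369639_at, was dim, at 2.9 to 3.21 on all arrays, where the lower quartile of an array lay at 3.86 to 3.99. It passed in no comparison in the fit of all arrays. Its left minus right difference in shunt animals of -0.19 (limma adjusted p = 0.0881) passed with quantile normalization again, at -0.24 (limma adjusted p = 0.0383), and without right atrium shunt replicate 2, at -0.26 (limma adjusted p = 0.0426). Which of the Gja1 probe sets follows the full transcript was not tested, since the probe sequences were not used here. The beta-actin control difference given above, a sign of RNA quality, was higher on every right array than on any left array. Its part in the left minus right values of Gja1 was not tested. Of the 4525 genes with several probe sets, 9, or 0.199%, had left minus right differences spread as widely as the 2.35 of Gja1, and the median spread was 0.39. In 52.4% of those genes some but not all probe sets passed, so that disagreement as such was common. Averaging the 3 probe sets gave 0.69 in sham and 0.61 in shunt, so that the left minus right value of Gja1 depends on which probe sets are taken.

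**Figure D3:**
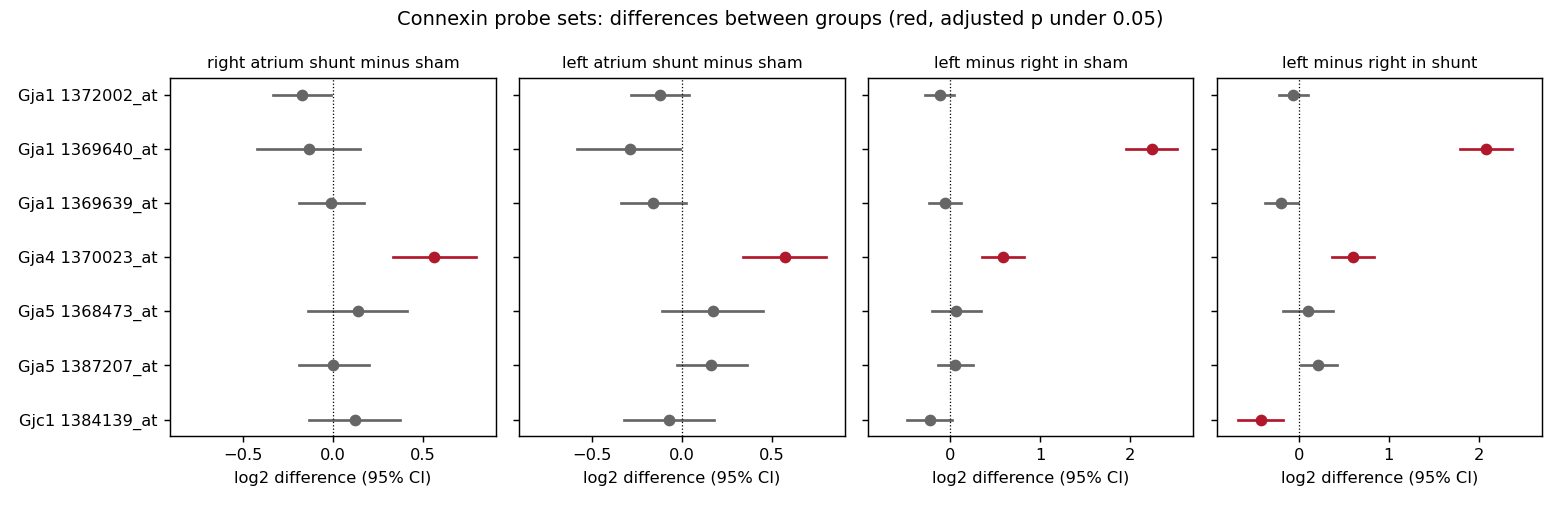
Log2 difference and 95% interval of each connexin probe set from the limma fit, for shunt minus sham in each atrium and left minus right in each operation. The Gja1 probe set 1369640_at stands alone at 2.24 and 2.07 between the atria, while Gja4 lies at 0.56 to 0.6 in the comparisons of shunt and sham and of left and right.

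Neither Gja5 probe set passed in the fit of all arrays, and the dim one passed between the atria in shunt animals under some alternatives. On 1368473_at, the brighter of its probe sets, the values were 5.77, 5.56 and 5.5 in right atrium sham, 5.8, 5.84 and 5.61 in right atrium shunt, 5.68, 5.98 and 5.4 in left atrium sham, and 5.83, 5.92 and 5.82 in left atrium shunt. Shunt and sham arrays of each atrium overlapped, and so did left and right arrays of each operation. The shunt differences were 0.14 ± 0.13 in the right atrium (interval -0.14 to 0.41, limma adjusted p = 0.6) and 0.17 ± 0.13 in the left (interval -0.11 to 0.45, limma adjusted p = 0.607). Left and right differed by 0.07 in sham (interval -0.2 to 0.35) and by 0.1 in shunt (interval -0.17 to 0.38), which bounds the difference but does not show that the levels are alike. The other probe set, 1387207_at, was dim, at 3.41 to 3.9. Its left minus right difference in shunt animals of 0.22 ± 0.09, with groups that did not overlap, missed the threshold (limma adjusted p = 0.0697). It passed with array weights, at 0.28 (limma adjusted p = 0.0187), and without left atrium shunt replicate 3, at 0.32 (limma adjusted p = 0.0115).

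Gjc1 was lower in the left atrium than in the right in shunt animals. Its values were 7.98, 7.98 and 8.04 in right atrium sham, 8.17, 8.02 and 8.19 in right atrium shunt, 7.75, 7.72 and 7.87 in left atrium sham, and 7.86, 7.39 and 7.88 in left atrium shunt. Every left array lay below every right array, and left atrium shunt replicate 2 lay lowest of all. In shunt animals the left minus right difference was -0.42 ± 0.12 (interval -0.67 to -0.17, n = 3 pools per group, limma adjusted p = 0.0129), 1.34-fold lower on the left. In sham animals it was -0.22 ± 0.12 (interval -0.47 to 0.03, limma adjusted p = 0.156) and did not pass.

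Without left atrium shunt replicate 2 the difference in shunt animals was -0.26 (limma adjusted p = 0.035) and that in sham animals passed (limma adjusted p = 0.0381). When the fit held the 6 arrays being compared and no others, the shunt difference just missed the threshold (limma adjusted p = 0.0505) and the sham difference passed (limma adjusted p = 0.047). With the shunt Gjc1 differed by 0.12 ± 0.12 in the right atrium and by -0.07 ± 0.12 in the left (limma adjusted p = 0.604 and 0.83). The summed level of the conduction tissue markers was 8.98 to 9.07 in right atrium sham, 8.88 to 9.03 in right atrium shunt, 8.89 to 8.97 in left atrium sham and 8.85 to 9.17 in left atrium shunt. In shunt animals 4 of 7 such markers were called higher on the left and 1 lower, or 71.4% against 40.5% of all genes. Of the 4, Tbx3 was called at 0.34, but another of its probe sets at -0.37. In sham animals 1 of these markers was called higher and 1 lower, or 28.6% against 37.6% of all genes. Their part in the values of Gjc1 was not tested.

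Groups of arrays that did not overlap were common. Shunt and sham did not overlap for 2 of 7 members in the right atrium, against 28.4% of all probe sets, and for 3 in the left, against 16.9%. Left and right did not overlap for 3 members in sham animals, against 50.4%, and for 5 in shunt animals, against 48.9%.

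Of the 19 other connexins and pannexins listed, 9 were measured. Between the atria in sham animals 2 of the 9 passed, or 22.2%, against 37.6% of all genes. With the shunt none passed in either atrium, where 3.97% of all genes passed on the right and 0.935% on the left, so that few or no calls in a list of this size are near the background. Gja3, a connexin best known from the lens, was higher on the left by 1.01 ± 0.12 in sham animals (limma adjusted p = 3.77e-05), and differed with the shunt in the left atrium by -0.54 ± 0.12 without passing (limma adjusted p = 0.0591). Panx1, a channel protein of the membrane, was higher on the left by 0.42 ± 0.09 in sham (limma adjusted p = 0.00313).

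Of 20 measured intercalated disc genes, 7 were higher and 7 lower on the left in sham animals, or 70% against the same 37.6%. None passed with the shunt, against the same 3.97% and 0.935%. The desmosomal cadherin Dsc2 was higher by 1.26, plakoglobin (Jup) by 0.65 and Xirp1, a protein of the disc that binds actin, by 0.88. Cdh2, the cadherin of the disc, differed by -0.71, but another of its probe sets was called at 0.45. Tjp1, the scaffold that binds connexin43, was higher on the left by 0.27 ± 0.06 (limma adjusted p = 0.00465) and by 1.08 as the mean of all its probe sets, and its shunt differences were 0.09 and -0.1.

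Among 15 measured genes of connexin trafficking and phosphorylation, 6 were higher and 4 lower on the left in sham, or 66.7% against 37.6% of all genes. None passed with the shunt, where 3.97% of all genes passed on the right and 0.935% on the left. Prkaca, a catalytic subunit of protein kinase A, was higher by 1.52 and Prkce, a protein kinase C, lower at -1.22. Ctbp1, a transcriptional co-repressor, was higher by 0.48 and Ywhaz, an adaptor that binds phosphorylated proteins, by 0.52. Among 23 transcription factors of connexin genes, 9 were higher and 5 lower on the left in sham, or 60.9% against the same 37.6%. None passed with the shunt, against the same 3.97% and 0.935%. Nkx2-5, a cardiac homeobox factor, was higher on the left by 1.03 and Shox2, a factor of the sinus node, differed by -1.64. Hand2, a helix-loop-helix factor of heart development, was higher by 0.69 and Klf2, a factor of endothelium under flow, by 0.92. Tbx5, a T-box factor of the atria, differed with the shunt by -0.38 in the right atrium (limma adjusted p = 0.127) and by -0.22 in the left (limma adjusted p = 0.478), and between the atria in sham by 0.05.

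The median differences of these 4 lists with the shunt were -0.07, 0.03, 0.06 and -0.01 in the right atrium, in the order given, against 0.02 over all genes, and -0.02, -0.05, 0.01 and -0.04 in the left, against -0.01. Between the atria in sham they were 0.07, -0.07, 0.16 and 0.22, against 0.04.

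**Figure D4:**
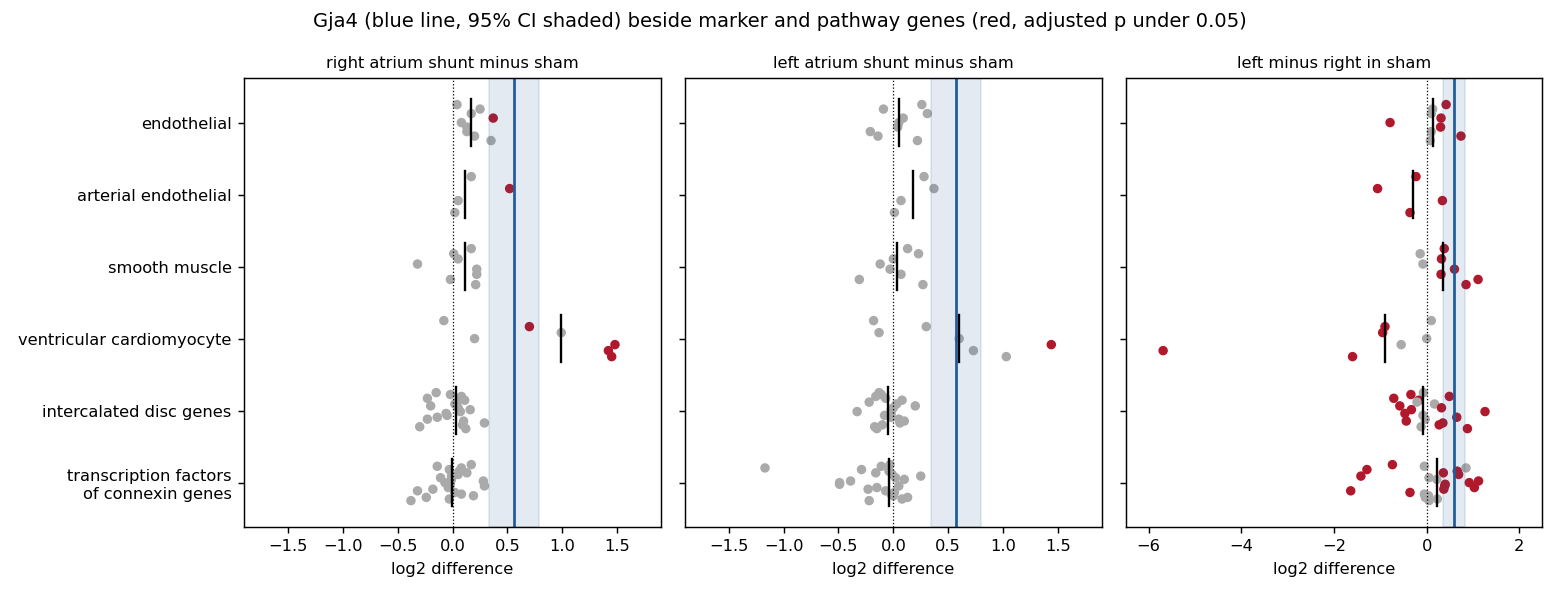
Log2 difference of each gene (points) in marker and connexin-related lists, with Gja4 as a line with its interval. The marker lists drawn are endothelial, arterial endothelial, smooth muscle and ventricular muscle. Of the 4 lists of connexin-related genes, only intercalated disc genes and transcription factors are drawn. All 4 had no call with the shunt in either atrium, and 2 to 14 calls between the atria in sham animals.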

How the data were processed

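For each of 12 arrays the authors deposited log2 values by probe set. Per the submitters' processing notes the tool was RMA; its version is not given in the sources used here. RMA makes all arrays nearly alike in distribution, with medians of 5.44 to 5.47, so a change shared by most transcripts is not visible. The number of arrays limits the precision.

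Of 31099 probe sets, 57 controls were left out. The annotation named 1 gene for 20826 of the others, several for 436 and none for 9780. The probe set with the highest mean stood for a gene. Limma 3.58.1 in R 4.3.3 (lmFit, eBayes) fitted 1 mean per group to all 12 arrays without a filter. Tests were two-sided, adjusted by the Benjamini-Hochberg method over 31042 probe sets, with a threshold of 0.05. The code was tested on simulated data.

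The members and lists were chosen with earlier results of these data known. Named were all members, up to 4 called genes of each related list per comparison, Tjp1, Nkx2-5 and Tbx5, and the 5 genes most like each member; 1 further gene of the rule is not reported here. Marker genes described were named after their values were seen. Alternatives were other normalizations, variance settings, array weights, probe set summaries, groups in the fit, the replicate number as a block, and leaving out each array; keeping only replicate 1 of the right atrium shunt arrays was chosen after seeing the data.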

Additional observations from a re-analysis of the deposited data

How the results depend on the processing

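Gja4 kept its direction in the shunt comparisons and between the atria under all alternatives run, but not always its call. In a fit of only the arrays compared, 0 members were called in the left atrium with the shunt, where Gja4 was 0.57 (adjusted p = 0.22); Gjc1 differed between left and right by -0.22 in sham and passed, and by -0.42 in shunt and did not. Trend and robust options called 2 members in the averaged comparison, the second being Gja1 at -0.15. The mean of all probe sets of a gene turned Gja1 to 0.69 in sham, 0.61 in shunt and -0.08 in the difference of the shunt effects, and Clec16a, 1 of the genes most like Gjc1, to 0.11. With 1 probe set per gene, 1 member was called between the atria in sham. Small values changed sign: Gjc1 averaged over the atria was 0 after quantile normalization again and -0.03 with array weights, the difference of the shunt effects of Gja4 was -0.01 with array medians subtracted, and Gja1 on 1369639_at was 0.02 in the right atrium after quantile normalization again.

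With right atrium shunt replicate 1 as the only array of its group, whose spread is then assumed to be that of the other groups, 0 members were called in either atrium with the shunt and 1 between the atria in shunt. Gja4 was 0.74 on the right, 0.57 on the left and 0.42 between the atria in shunt, none past the threshold, and the difference of its shunt effects was -0.16; Gjc1 was -0.46 between the atria, not past it. The difference of the shunt effects was -0.02 for Gja5 on 1368473_at and 0.06 for Gja1 on 1369640_at, and 1369639_at was 0.03 in the right atrium.

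Leaving out each array gave 0 to 1 members called with the shunt in either atrium. Gja4 lay between 0.47 and 0.61 in the right atrium, 0.49 and 0.69 in the left and -0.07 and 0.13 in the difference. Gjc1 lay between -0.16 and 0.09 in the left atrium, -0.02 and 0.10 averaged, and -0.27 and -0.19 between the atria in sham. Gja5 on 1368473_at lay between -0.11 and 0.18 in the difference and -0.07 and 0.22 between the atria in sham. On 1387207_at it lay between -0.07 and 0.05 in the right atrium and -0.01 and 0.11 between the atria in sham. Gja1 on 1369639_at lay between -0.08 and 0.05 in the right atrium. The number of all probe sets called moved from 923 to between 148 and 1631 in the right atrium, from 233 to between 77 and 554 in the left, from 1198 to between 672 and 2018 averaged and from 8 to between 0 and 21 in the difference. The other alternatives gave 664 to 2352, 13 to 485, 971 to 1867 and 3 to 15. Between the atria, tests by gene called 5621 in sham against 11214 and 6097 in shunt against 11690, with fewer features tested. Other causes were not tested.

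Left and right or shunt and sham arrays of the same replicate number share no stated animals, and their deviations from the group means correlated between -0.076 and -0.006 for shunt and sham and between 0.079 and 0.148 for left and right. Each left or right array correlated best with its own number, a hint from the data only, since not every pair lay above 0.1. With the replicate block Gja4 was 0.56 in the right atrium (adjusted p = 0.0134) and 0.57 in the left (adjusted p = 0.0192), and the dim Gja5 probe set gained a call between the atria in shunt animals, at 0.22 (adjusted p = 0.0477), which made 4 members called there in place of 3; Esam lost its right atrial call, at 0.37 (adjusted p = 0.0512). No other member's call changed. Quantile normalization again and array weights also called 4 there.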
